A study of Mus musculus with 8 samples.

Results

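The genes described here belong to 3 systems that set the tone of arteries, angiotensin, endothelin and neuropeptide Y. They were chosen by name, as Agt, Ace, Agtr1a, Agtr2, Edn1, Ednra, Ednrb, Ece1 and Npy1r, through the gene symbols of the array's platform table, by a rule that uses no measured value, though with earlier results of these data known. Of the 9 genes named, 8 had a probe set listed with that symbol alone, out of 22184 genes measured in this way, and each of the 8 had 1 probe set. Ednra was not analysed here. All 8 lay above the level below which genes were left out as dim (4.11 on the log2 scale), so all 8 were among the 16638 genes tested.

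RNA was measured on Affymetrix mouse gene arrays in newborn (p0) pups on an albino C57BL/6J background that were either wild type (WT) or knockout (KO) for lysyl oxidase (Lox), the enzyme that begins the crosslinking of elastin and collagen. The 4 groups were each genotype in 2 segments, the ascending aorta, cut at the valve and at the ductus arteriosus, and the descending aorta, which the labels place between vena cava and diaphragm. Each group had 2 arrays, and each array held RNA from a pool of 8 pups of 1 genotype and segment, so n = 2 pools per group throughout and p-values measure the spread between pools, not between pups. The labels give no treatment, sex, promoter, Cre or breeding scheme, and do not say whether the same pups gave both segments. Values are log2 signals, on which a difference of 1 is a 2-fold change, and levels were compared only within a gene because probes differ in brightness.

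Angiotensinogen is cut by renin and then by angiotensin-converting enzyme to give angiotensin II, which contracts vascular smooth muscle through its type 1 receptor and has a second receptor that is abundant in fetal and newborn tissue. Endothelin is made mainly by endothelium, is released from its precursor by endothelin-converting enzyme, and acts on a contractile receptor of smooth muscle and on a second receptor shared by endothelium and neural crest cells. Neuropeptide Y is stored with noradrenaline in sympathetic nerve endings and contracts arteries through its Y1 receptor.

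The targeted gene followed the labels. Lox lay between 11.24 and 11.60 on the 4 WT arrays and between 8.51 and 8.87 on the 4 KO arrays; whether its probes lie inside the deleted stretch is not stated. Pearson correlations between the 2 arrays of a group, across genes, ran from 0.988 to 0.992. The smooth muscle actin gene Acta2 lay at 12.42 to 12.63 on every array. Because whole segments were measured, fewer cells of a type and less RNA per cell cannot be told apart in any value given here.

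Promoter sequence is shown for the 4 genes whose levels passed the test in at least 1 comparison. Windows reach from 250 bases before to 50 bases after the annotated start, are taken from RefSeq (GRCm38.p6), and were found for 7 of the 8 measured genes. All 4 lie on the + strand and read 5′ to 3′, with matches to 6 searched motifs in capitals. Npy1r is at chr8:66697172-66697471, Edn1 at chr13:42301226-42301525, Agtr2 at chrX:21484374-21484673 and Ace, in the first of its 2 windows, at chr11:105967698-105967997.
Npy1r: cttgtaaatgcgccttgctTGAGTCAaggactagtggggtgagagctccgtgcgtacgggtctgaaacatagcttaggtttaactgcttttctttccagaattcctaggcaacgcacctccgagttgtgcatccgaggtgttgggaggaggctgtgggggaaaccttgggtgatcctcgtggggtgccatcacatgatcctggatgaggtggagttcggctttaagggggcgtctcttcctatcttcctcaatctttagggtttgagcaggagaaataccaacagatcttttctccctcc
Edn1: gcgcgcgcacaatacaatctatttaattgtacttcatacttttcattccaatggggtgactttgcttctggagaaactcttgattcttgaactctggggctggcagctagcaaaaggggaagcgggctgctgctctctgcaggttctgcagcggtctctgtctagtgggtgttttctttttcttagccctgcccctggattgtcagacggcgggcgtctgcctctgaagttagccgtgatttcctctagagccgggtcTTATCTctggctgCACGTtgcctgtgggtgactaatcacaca
Agtr2: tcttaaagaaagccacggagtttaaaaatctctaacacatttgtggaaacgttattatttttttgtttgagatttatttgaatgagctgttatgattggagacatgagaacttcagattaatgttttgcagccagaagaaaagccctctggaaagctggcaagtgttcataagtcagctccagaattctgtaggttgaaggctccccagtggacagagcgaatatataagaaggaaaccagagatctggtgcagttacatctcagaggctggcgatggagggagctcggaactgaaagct
Ace: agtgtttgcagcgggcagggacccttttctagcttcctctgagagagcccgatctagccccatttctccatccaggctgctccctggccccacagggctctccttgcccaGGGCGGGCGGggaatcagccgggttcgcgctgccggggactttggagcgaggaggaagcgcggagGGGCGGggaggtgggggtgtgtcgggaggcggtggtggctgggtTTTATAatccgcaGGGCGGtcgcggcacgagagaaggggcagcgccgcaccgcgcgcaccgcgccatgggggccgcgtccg

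Motifs were searched on both strands as exact letters, and 6 were tried. The Npy1r window held 1 match, to the AP-1 motif, searched as TGACTCA, on the opposite strand 231 bases upstream of the start, and 5.20% of all 32851 windows hold these letters too. In the Edn1 window the motif of GATA factors, searched as AGATAA, lay 8 bases downstream of the start, as in 11.2% of windows, and the core of the hypoxia response element, searched as ACGTG, lay 21 bases downstream, as in 19.6%, both on the opposite strand. The Ace window held 4 GC boxes, searched as GGGCGG and found in 35.7% of windows, at 140, 136, 75 and 18 bases upstream, of which the first pair share bases. It also held the letters of a TATA box, searched as TATAAA and found in 13.6% of windows, on the opposite strand 31 bases upstream. No searched motif lay in the Agtr2 window. The Agt window, not printed, held a TATA box 30 bases upstream on the strand of the gene. The CArG box, found in 1.63% of windows, was in none of the windows of the measured genes. These matches describe letters and not bound sites.

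**Figure D1:**
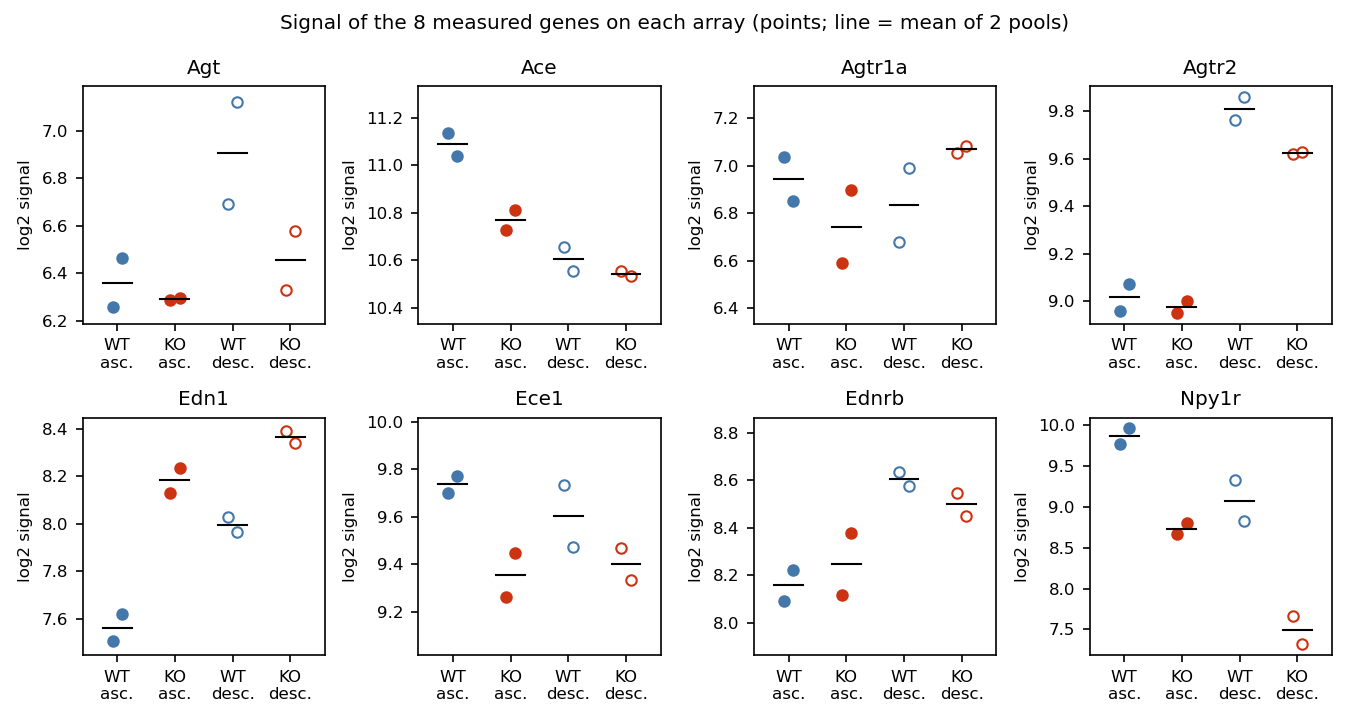
Log2 signal of the 8 measured genes (vertical axes, a separate range for each gene) on the 2 arrays of each group, WT in blue and KO in red, ascending segments as filled and descending segments as open points, with a line at the mean of 2 pools. Npy1r spans the widest range, from 7.32 on a KO descending array to 9.97 on a WT ascending array.

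The comparison of KO with WT asks what loss of Lox goes with in each segment. In the ascending aorta 2 of the 8 genes passed the test, Npy1r lower and Edn1 higher in KO, beside 2.73% of all genes tested. In the descending aorta 1 of 8 passed, Npy1r, beside 2.28% of all genes. With the segments averaged, the same pair, Npy1r lower and Edn1 higher, made 2 of 8, beside 11.4% of all genes. The genotype by segment interaction called 0 of the 8 members and 0% of all genes in limma, where 932 genes had an unadjusted p under 0.05, none of them a member.

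The comparison of ascending with descending aorta asks how the segments differ within a genotype. In WT pools 1 of the 8 genes passed, Agtr2 lower in the ascending segment, beside 1.48% of all genes tested. In KO pools 2 of 8 passed, Agtr2 lower and Npy1r higher in the ascending segment, also beside 1.48% of all genes. With the genotypes averaged 3 of 8 passed, Agtr2, Npy1r and Ace, beside 4.07% of all genes. Agt, Agtr1a, Ednrb and Ece1 passed in none of the 7 comparisons. Of the 6 calls in the pairwise comparisons none was left when all 41345 probe sets were tested separately (adjusted p from 0.0992 to 0.143), and 1, Npy1r in the descending aorta between genotypes, when differences were tested against 1.2-fold. The comparisons share arrays, since each group enters a genotype and a segment comparison.

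**Figure D2:**
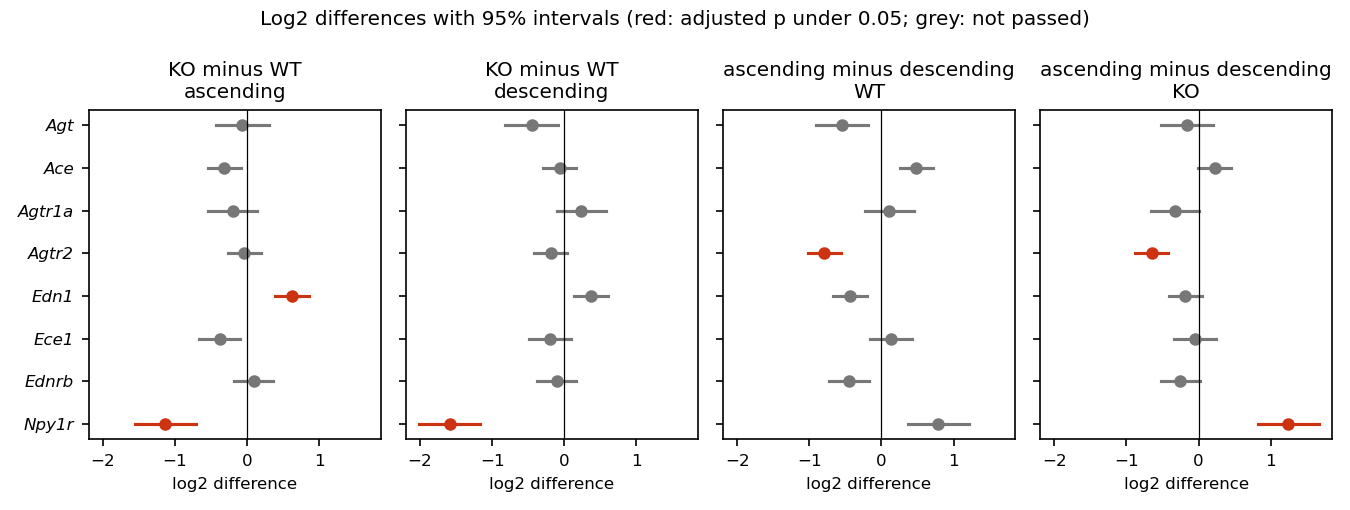
Log2 differences with 95% intervals (horizontal axes) for the 8 genes in the 4 pairwise comparisons, from limma with 2 pools per group, red where the adjusted p was under 0.05 and grey where it was not. Npy1r lies left of zero in both KO against WT panels, and Agtr2 lies left of zero in both segment panels.

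Agt encodes angiotensinogen, the precursor of the angiotensin peptides. Its log2 signals were 6.26 and 6.46 in WT ascending, 6.69 and 7.12 in WT descending, 6.29 and 6.30 in KO ascending, and 6.33 and 6.58 in KO descending pools. Both WT descending arrays lay above the other 6, while the WT ascending range overlapped that of each KO group. Between genotypes the KO minus WT difference was -0.45 (95% interval -0.82 to -0.09, adjusted p = 0.18) in the descending aorta and -0.07 (-0.43 to 0.30, adjusted p = 0.869) in the ascending. Within WT the ascending segment differed from the descending by -0.55 (adjusted p = 0.184), so neither difference passed.

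Markers of neighbouring tissues differed between the same groups, among them liver and fat, which are known to make Agt. The mean level of 9 liver plasma protein genes was 5.40 and 5.75 in WT descending and 7.14 and 8.46 in KO descending pools, and 7 of the 9 rose in KO there. The mean level of 8 fat genes was highest in WT descending pools, 9.07 and 9.37, against 7.25 to 8.55 on the other 6 arrays. All 8 fat genes were lower in KO in both segments. Of them 4 fell in the ascending aorta, 1 in the descending and 7 with the segments averaged, and 0 rose. The mean level of 8 lung epithelium genes was 5.73 and 6.18 in WT descending pools against 4.54 to 5.11 on the other 6 arrays. Of these 8, the surfactant gene Sftpc (-4.35, adjusted p = 0.00577) and the lung transcription factor gene Nkx2-1 (-0.78, adjusted p = 0.0161) fell in the KO descending aorta, and 0 rose. The mean level of 8 heart muscle genes was 7.96 and 8.22 in WT descending pools against 7.13 to 7.89 on the other 6 arrays. That of 5 thymus and T cell genes was 6.46 on 1 WT ascending array and 5.09 to 5.60 on the others. The part of liver, fat, lung, heart or thymus in the levels of Agt, or of any other gene in any group, was not tested.

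Ace, the enzyme that makes angiotensin II from angiotensin I, was highest in the WT ascending aorta. Its signals were 11.13 and 11.04 in WT ascending, 10.73 and 10.81 in KO ascending, 10.66 and 10.56 in WT descending, and 10.55 and 10.53 in KO descending pools. No arrays of the 4 groups overlapped, but the lowest pair of groups differed by only 0.06 in their means, within the 0.10 between the 2 WT descending arrays. Ace was 0.35 higher in ascending than in descending segments with the genotypes averaged (SE 0.07, adjusted p = 0.0301, 1.28-fold), and this call was lost when any single array was left out, with adjusted p from 0.0572 to 0.111. The segments differed by 0.48 within WT (adjusted p = 0.0645) and by 0.22 within KO (adjusted p = 0.429). In the ascending aorta the KO minus WT difference was -0.32 (95% interval -0.55 to -0.09, adjusted p = 0.132), and in the descending aorta -0.06 (-0.29 to 0.17, adjusted p = 0.795).

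Agtr1a, a gene of the type 1 angiotensin receptor, passed in no comparison. Its 8 arrays lay between 6.59 and 7.08, with 7.04 and 6.85 in WT ascending, 6.68 and 6.99 in WT descending, 6.59 and 6.90 in KO ascending and 7.06 and 7.08 in KO descending pools. Only the KO descending arrays stood above all others. The KO minus WT difference was -0.20 (95% interval -0.54 to 0.14, adjusted p = 0.508) in the ascending and 0.23 (-0.10 to 0.57, adjusted p = 0.442) in the descending aorta. The interaction, -0.44, had the smallest unadjusted p of the 8 genes, 0.0688, and an adjusted p of 0.895. Agtr1b, also a type 1 receptor gene but not a member, passed in no comparison either, at group means of 4.61 to 4.91. Its KO minus WT difference was 0.25 (adjusted p = 0.366) in the ascending and -0.24 (adjusted p = 0.392) in the descending aorta. The Agtr1b interaction was 0.48 (adjusted p = 0.864).

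Agtr2, the second angiotensin receptor, divided the arrays by segment. Its signals were 8.96 and 9.07 in WT ascending and 8.95 and 9.001 in KO ascending pools, against 9.76 and 9.86 in WT descending and 9.62 and 9.63 in KO descending pools. Every descending array lay above every ascending array. Agtr2 in the ascending aorta was 1.74-fold lower in WT (-0.79 on the log2 scale, SE 0.10, adjusted p = 0.00887) and 1.57-fold lower in KO (-0.65, SE 0.10, adjusted p = 0.0209). The WT call was lost without the WT ascending array of replicate 1 (adjusted p = 0.0751) or the WT descending array of replicate 2 (adjusted p = 0.0748), and the KO call without any 1 of the 4 KO arrays (adjusted p from 0.0862 to 0.122). With the genotypes averaged the difference was -0.72 (SE 0.07, adjusted p = 0.00107), and this call held under every alternative tried. Between genotypes Agtr2 differed by -0.04 (95% interval -0.27 to 0.19) in the ascending and -0.19 (-0.42 to 0.04) in the descending aorta, with adjusted p of 0.876 and 0.357.

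The other genes of the renin-angiotensin pathway were taken from a list of 19, of which 16 matched a gene and 14 were tested. Between genotypes 1 of 14 fell in the KO ascending aorta, Mme, and 0 rose. Mme encodes neprilysin, a membrane peptidase that cleaves angiotensin peptides, and it fell by 0.84 (adjusted p = 0.0413). The Mme call held in 2 of the 8 fits that left 1 array out. In the descending aorta 0 of 14 passed. Between segments Enpep, the aminopeptidase that trims angiotensin II, was the 1 gene called. It was lower in the ascending aorta both in WT (-0.79, adjusted p = 0.0141) and in KO (-0.80, adjusted p = 0.0135). Each of these Enpep calls held in 4 of the 8 fits that left 1 array out.

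The list medians were 0.01 and -0.07 for KO minus WT in the ascending and descending aorta and -0.24 and -0.20 for ascending minus descending in WT and KO, with a median over all tested genes of 0.01, -0.01, -0.0048 and -0.0016 in that order. With the segments averaged 2 of 14 fell in KO, Mme (-0.78, adjusted p = 0.00665) and the mast cell chymase Cma1 (-0.73, adjusted p = 0.0247), and 1 rose, the peptidase Thop1 (0.48, adjusted p = 0.0088). Of all genes tested, 11.4% passed there. With the genotypes averaged 5 of 14 were lower in the ascending aorta, Enpep, Mme, Cma1 and a further mast cell protease, Mcpt4, and the carboxypeptidase Prcp. In that comparison 4.07% of all genes passed. Ren1 was not analysed here, and Mas1, a receptor for angiotensin 1-7, was dim at 3.80 to 4.15.

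Edn1 encodes endothelin-1, the main vascular ligand of the system, and was higher in KO than in WT aorta. Its signals were 7.51 and 7.62 in WT ascending, 8.03 and 7.96 in WT descending, 8.13 and 8.24 in KO ascending, and 8.39 and 8.34 in KO descending pools. No arrays of the 4 groups overlapped, and the neighbouring groups in this order were 0.43, 0.19 and 0.18 apart in their means, each more than the 0.12 or less that separated the 2 arrays of a group. Edn1 was 1.54-fold higher in KO in the ascending aorta (0.62 on the log2 scale, SE 0.10, adjusted p = 0.0224). This call was lost when either WT or either KO ascending array was left out, with differences of 0.56 to 0.68 and adjusted p from 0.0819 to 0.1. In the descending aorta the difference was 0.37 (95% interval 0.14 to 0.60, adjusted p = 0.104). Averaged over the segments Edn1 was higher in KO by 0.49 (SE 0.07, adjusted p = 0.0061), and this call held with each array left out. Between the segments Edn1 differed by -0.43 in WT (adjusted p = 0.0955) and -0.18 in KO (adjusted p = 0.563).

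Markers of endothelium, its main source, were read beside it. The mean level of 20 endothelial genes was 7.78 and 7.91 in WT ascending and 7.61 and 7.60 in KO ascending pools, and 8.27 and 8.21 in WT descending and 8.07 and 8.01 in KO descending pools. Of these 20 genes, 2 fell in KO in the ascending aorta, the receptor Kdr (-0.62) and the nitric oxide synthase Nos3 (-0.65), and 0 rose. The call of Nos3 was lost whichever array was left out. Kdr also fell in the descending aorta (-0.54), where the receptor Flt1 rose (0.87, adjusted p = 0.0392). With the segments averaged 9 of the 20 fell, and 1, Flt1, rose (0.76, adjusted p = 0.00707), beside 11.4% of all genes that passed. Of 9 macrophage and neutrophil genes tested 5 rose in KO in the ascending aorta, and the mean level of that list was 7.61 to 7.75 in KO ascending against 6.36 to 6.79 in WT ascending pools. The part of either cell type in the Edn1 difference was not tested.

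Ece1, the membrane enzyme that releases active endothelin, passed in no comparison. Its signals were 9.70 and 9.77 in WT ascending, 9.73 and 9.47 in WT descending, 9.26 and 9.45 in KO ascending and 9.47 and 9.34 in KO descending pools. Every KO array lay below every WT array, though the nearest pair, in the descending aorta, were 0.0050 apart. The KO minus WT difference was -0.38 (95% interval -0.67 to -0.09, adjusted p = 0.149) in the ascending and -0.20 (-0.49 to 0.09, adjusted p = 0.436) in the descending aorta. Averaged over the segments it was -0.29 (adjusted p = 0.0716).

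Ednrb, the endothelin receptor of endothelium and neural crest derivatives, passed in no comparison either. Its signals were 8.09 and 8.22 in WT ascending and 8.12 and 8.38 in KO ascending pools, against 8.64 and 8.58 in WT descending and 8.55 and 8.45 in KO descending pools. Every descending array lay above every ascending array. The ascending minus descending difference was -0.45 (95% interval -0.72 to -0.17, adjusted p = 0.146) in WT and -0.25 (-0.53 to 0.02, adjusted p = 0.468) in KO, and -0.35 (adjusted p = 0.0619) with the genotypes averaged. The KO minus WT differences were 0.09 (adjusted p = 0.747) and -0.11 (adjusted p = 0.683).

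Markers of the cells known to carry Ednrb were read beside it. The endothelial level was 8.01 to 8.27 on descending and 7.60 to 7.91 on ascending arrays, and 4 of the 20 genes were lower and 0 higher in the ascending aorta in each genotype. The level of 6 Schwann cell and neural crest glia genes was 6.02 to 6.17 on descending and 5.60 to 5.94 on ascending arrays. Of these 6, Fabp7 was lower in the ascending aorta in WT (-1.48), and Fabp7 (-1.05) and S100b (-0.89) were in KO, while the defining glial factor Sox10 differed by 0.03 and Foxd3 by 0.07 with the genotypes averaged (adjusted p = 0.909 and 0.794). Among 5 melanocyte genes tested none passed in the 4 pairwise comparisons. The part of these cell types in the Ednrb levels was not tested.

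All 6 genes of a list of other endothelin pathway genes were tested. Kel, a peptidase that converts endothelin-3 and is also a red cell antigen, was the 1 gene that passed between genotypes in the ascending aorta, where it rose in KO (0.75, adjusted p = 0.0433). Leaving out any 1 of 6 arrays ended that call, and no array had a Kel signal above 5.11. The 2 red blood cell genes tested, Slc4a1 and Epb42, differed by 0.95 and 0.17 there (adjusted p = 0.0571 and 0.51). In the descending aorta they differed by 0.03 and 0.23 (adjusted p = 0.963 and 0.368). The part of red cells in the Kel level was not tested. In the other 3 pairwise comparisons 0 of 6 passed. Ece2, a second converting enzyme, was 0.43 higher in KO in either segment (adjusted p = 0.0907 and 0.0952) and passed with the segments averaged (adjusted p = 0.0145), as did Kel (0.59, adjusted p = 0.0123). The ligands Edn2 and Edn3 differed by 0.32 and 0.16 in the ascending aorta, with adjusted p of 0.366 and 0.461. The list medians were 0.24 and -0.02 for KO minus WT in the ascending and descending aorta, and 0.02 and 0.12 between segments in WT and KO.

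Npy1r, the Y1 receptor through which neuropeptide Y contracts arteries, was lower in KO than in WT aorta in both segments. Its signals were 9.77 and 9.97 in WT ascending, 9.33 and 8.82 in WT descending, 8.67 and 8.80 in KO ascending, and 7.66 and 7.32 in KO descending pools. No arrays of the 4 groups overlapped, but the means of the WT descending and KO ascending groups were 0.35 apart, less than the 0.51 between the 2 WT descending arrays.

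Npy1r in the ascending aorta was 2.19-fold lower in KO (-1.13 on the log2 scale, SE 0.18, adjusted p = 0.0217), and in the descending aorta it was 3.01-fold lower (-1.59, SE 0.18, adjusted p = 0.00893). Averaged over the segments it fell by 1.36 (SE 0.13, adjusted p = 0.00131), and this call held under every alternative tried. The ascending call was lost when any 1 of the 4 ascending arrays was left out, with differences from -1.23 to -1.04 and adjusted p from 0.066 to 0.115. The descending call was lost without the WT descending array of replicate 1 (-1.34, adjusted p = 0.0638) or the KO descending array of replicate 2 (-1.42, adjusted p = 0.05003).

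Npy1r also differed by segment. It was 2.37-fold higher in the ascending than in the descending aorta of KO pups (1.25, SE 0.18, adjusted p = 0.0186) and 0.79 higher in WT (95% interval 0.37 to 1.21, adjusted p = 0.0932). The KO call was lost without either KO ascending array or the KO descending array of replicate 2, with adjusted p of 0.0839, 0.0971 and 0.111. With the genotypes averaged the difference was 1.02 (SE 0.13, adjusted p = 0.00395) and passed under every alternative tried. The interaction was 0.46 (95% interval -0.14 to 1.05, adjusted p = 0.913), so a difference between the genotypes in the segment effect was not detected with 2 pools per group.

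Smooth muscle genes were read as the cells known to carry the Y1 receptor in arteries. The mean level of 10 of them lay between 9.68 and 9.86 on all arrays, and 0 of the 10 passed in any of the 4 pairwise comparisons. With the genotypes averaged 2 of the 10 were higher in the ascending aorta, the contractile regulator Lmod1 (0.43, adjusted p = 0.0196) and the smooth muscle coactivator Myocd (0.34, adjusted p = 0.0429). With the segments averaged 0 of 10 passed between genotypes, with 4 differences above zero and 6 below, from -0.26 to 0.26. Of 8 genes of mural cells of small vessels, Ndufa4l2 rose (0.88) and Kcnj8 fell (-0.76) in the KO ascending aorta. In the KO descending aorta Ndufa4l2 (1.06) and Cspg4 (0.64) rose and 0 fell. The part of smooth muscle or mural cells in the Npy1r levels was not tested. Npy5r, the Y5 receptor gene that RefSeq places next to Npy1r, was dim, at 3.90 to 4.35.

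RNA of the ligand gene, Npy, had the opposite segment order to that of Npy1r. Npy signals were 6.34 and 6.92 in WT ascending, 7.40 and 8.51 in WT descending, 6.63 and 7.06 in KO ascending, and 8.28 and 8.98 in KO descending pools, so that every descending array lay above every ascending one. The ascending minus descending difference was -1.32 in WT (SE 0.37, adjusted p = 0.171) and -1.78 in KO (adjusted p = 0.0648), and -1.55 with the genotypes averaged (SE 0.27, adjusted p = 0.0146). Between genotypes Npy differed by 0.21 (95% interval -0.64 to 1.07) in the ascending and 0.68 (-0.18 to 1.53) in the descending aorta, with adjusted p of 0.812 and 0.377.

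**Figure D3:**
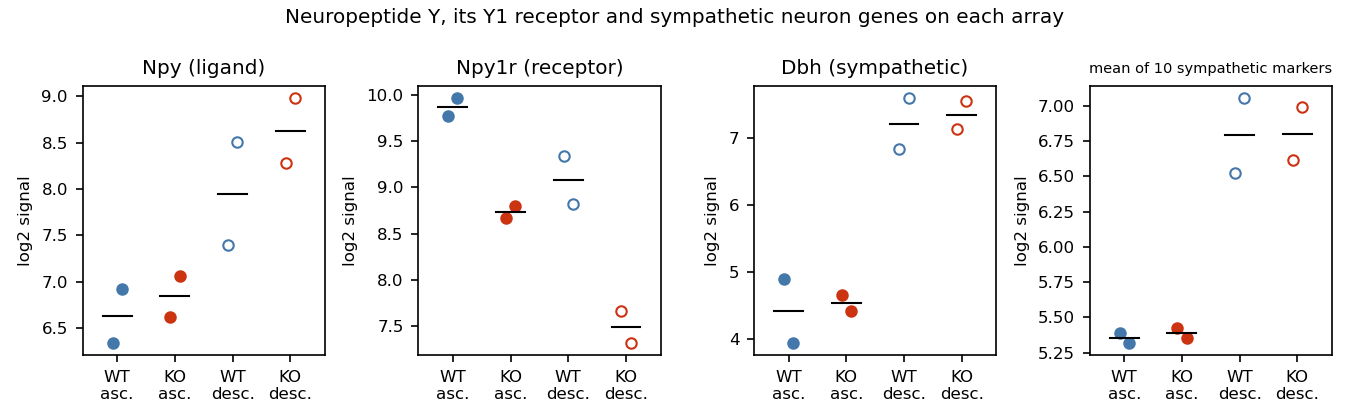
Log2 signal (vertical axes) of Npy, Npy1r, the noradrenaline enzyme gene Dbh and the mean of 10 sympathetic neuron genes on the 2 arrays of each group, WT in blue and KO in red, with lines at the mean of 2 pools. Npy, Dbh and the marker mean are higher on every descending array than on any ascending array, whereas Npy1r is highest in WT ascending and lowest in KO descending pools.

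Sympathetic neuron genes, written as markers of the nerve cells that hold neuropeptide Y, had the segment order of Npy. Of 10 tested, 6 were lower in the ascending aorta in WT and 7 in KO, and 0 were higher. Their mean level was 5.32 to 5.43 on ascending and 6.53 to 7.05 on descending arrays. Dbh, which makes noradrenaline, was lower in the ascending aorta in WT (-2.79, adjusted p = 0.00729) and in KO (-2.80, adjusted p = 0.00779). Between genotypes 0 of the 10 passed in either segment. The part of these nerve cells in the levels of Npy was not tested.

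Of the 8 other genes listed for neuropeptide Y, 4 were tested, Npy, Ppy, Npy4r and Dpp4, and none passed in the 4 pairwise comparisons. Their medians were 0.15 and 0.19 for KO minus WT in the ascending and descending aorta and -0.13 and 0.12 between the segments in WT and KO. Dpp4, the surface peptidase that shortens neuropeptide Y, was 0.66 higher in the ascending aorta with the genotypes averaged (adjusted p = 0.0342). The remaining 4, Npy2r, Npy5r, Npy6r and Pyy, were dim.

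Genes described elsewhere as induced by angiotensin II in vascular cells were taken as a further list, of which 20 of 24 were tested, Edn1 among them. Many of them also respond to other stimuli and to tissue handling. The list was chosen with earlier results of these data known, so its counts and medians are a description and not a test. In the ascending aorta 8 of 20 rose in KO and 0 fell, beside 2.73% of all genes that passed. The median was 0.59, and 0.01 over all genes. Ptgs2, the inducible cyclooxygenase, rose by 2.95 (adjusted p = 0.000551), the matrix protein Thbs1 by 1.57 (adjusted p = 0.00578), the growth factor Hbegf by 1.17 (adjusted p = 0.00591) and the early response factor Egr1 by 1.85 (adjusted p = 0.0131). Junb, Ccn1 and Ccl2 rose by 1.00, 1.36 and 2.07, and Edn1 was the 8th gene.

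In the descending aorta 4 of 20 rose in KO and 0 fell, beside 2.28% of all genes that passed. The median was 0.40, and -0.01 over all genes. Ptgs2 rose by 1.15 (adjusted p = 0.0266), Thbs1 by 1.12 (adjusted p = 0.0214), Egr1 by 1.34 (adjusted p = 0.0388) and Ccn2 by 0.67 (adjusted p = 0.037). The call of Ccn2 was lost whichever array was left out. Ptgs2 signals were 5.24 and 5.59 in WT ascending and 8.39 and 8.33 in KO ascending pools, and 4.87 and 4.93 in WT descending and 6.32 and 5.78 in KO descending pools. With the segments averaged 12 of the 20 rose and 0 fell, beside 11.4% of all genes that passed. Between segments 0 of 20 passed in WT and 2 rose in the ascending aorta of KO, Ptgs2 by 2.31 and Hbegf by 1.05.

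These counts moved with single arrays. The ascending count was 3 without the WT ascending array of replicate 2 or the KO ascending array of replicate 1, 4 without the other array of either group, and 7 or 9 in the remaining cases. In the descending aorta the count was 0 without either WT descending array, 1 without either KO descending array and 2 without any 1 ascending array. The calls of Ptgs2, Thbs1 and Hbegf in the ascending aorta, and of Ptgs2 between the KO segments, held with each array left out. They were the 4 that did so among 33 called differences of pathway list genes other than the members, and the other 29 were each lost without at least 1 array. The level of the macrophage and neutrophil list, given above for the ascending aorta, was 7.44 and 7.65 in KO descending and 6.76 and 6.91 in WT descending pools, and its part in these rises was not tested.

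**Figure D4:**
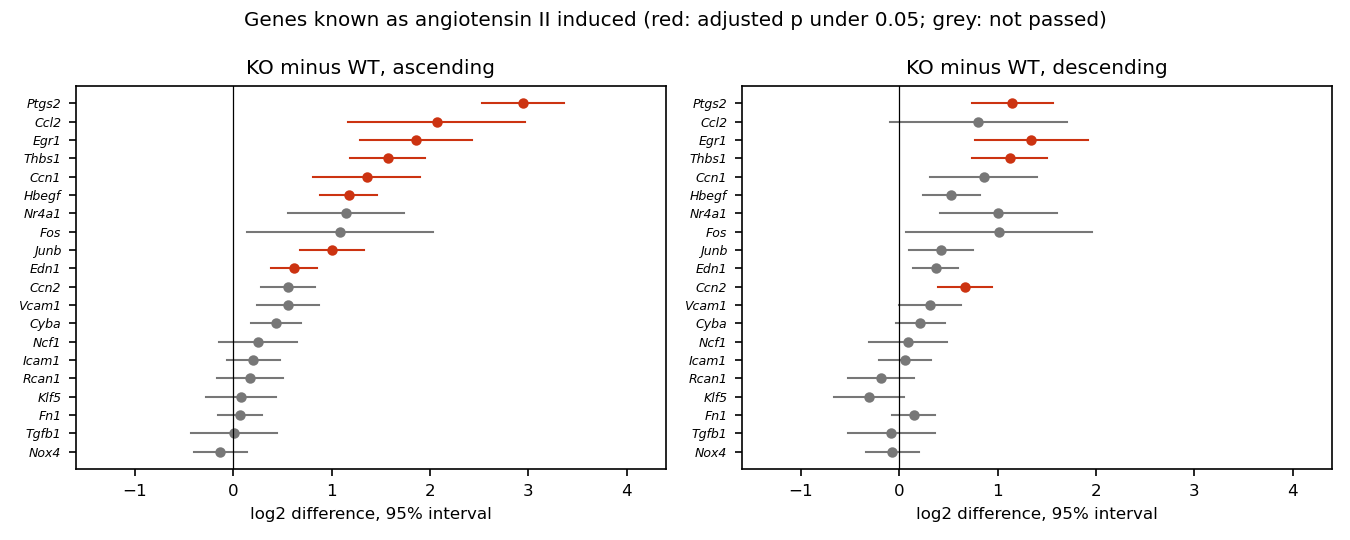
Log2 differences, KO minus WT, with 95% intervals (horizontal axes) for the 20 tested genes of the angiotensin II list in the ascending and descending aorta, ordered by the ascending value, red where the adjusted p was under 0.05. In the ascending panel 19 of the 20 lie right of zero and 8 are red, and in the descending panel 16 do and 4 are red.

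Other vasoactive ligands and receptors were tested as 43 of 59 listed genes. In the ascending aorta 3 rose in KO, the sphingosine-1-phosphate receptor S1pr3 (0.92, adjusted p = 0.0287), the serotonin receptor Htr1b (0.77, adjusted p = 0.0318) and the nucleotide receptor P2ry6 (0.68, adjusted p = 0.0272), and 1 fell, Nos3 (-0.65, adjusted p = 0.0482). In the descending aorta P2ry6 rose (0.59, adjusted p = 0.0469) and Gucy1a1, a subunit of the nitric oxide receptor, fell (-0.54, adjusted p = 0.0472). The call of Gucy1a1 was lost whichever array was left out, and that of P2ry6 there held in 2 of the 8 such fits. Between segments 0 were higher and 2 were lower in the ascending aorta in each genotype. They were the apelin receptor Aplnr (-1.58 in WT, -1.39 in KO) and the vasoactive intestinal peptide receptor Vipr2 (-0.92 in WT, -0.86 in KO). With the segments averaged 7 rose and 6 fell in KO, beside 11.4% of all genes that passed. With the genotypes averaged 2 were higher and 6 lower in the ascending aorta, beside 4.07% of all genes. The medians were 0.03 and -0.10 for KO minus WT and -0.11 and -0.02 between segments. With 1 array left out the counts ran from 0 to 3 risen and 0 to 1 fallen in the ascending aorta, and from 0 to 1 in either direction in the descending aorta.

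G proteins, their regulators and receptor kinases, which carry or restrain the signals of G protein-coupled receptors, were tested as 34 of 40 listed genes. Between genotypes 0 of 34 passed in the ascending aorta, and in the descending aorta 1 rose in KO, the protein kinase C gene Prkca (0.72, adjusted p = 0.0328). Between segments the phospholipase Plcb1 (0.66 in WT, 0.54 in KO) and the G protein regulator Rgs4 (0.84 in WT, 0.75 in KO) were higher in the ascending aorta. Rgs2, which restrains angiotensin and endothelin receptor signalling, was lower there in WT (-1.34, adjusted p = 0.0233). The KO call of Plcb1 was lost whichever array was left out. With the segments averaged 3 rose and 1 fell in KO, in a comparison where 11.4% of all genes passed. The medians were 0.01 and 0.01 for KO minus WT and 0.04 and -0.02 between segments.

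For the 4 genes that passed, the tested genes with the highest positive Pearson correlation over the 8 arrays were found. Genes with placeholder names, microRNA and small nucleolar RNA genes, and olfactory and vomeronasal receptor genes were left out of this ranking. The correlations are given as a description because the arrays share their groups. Npy1r was followed most closely by Insig2 (0.991), Uhrf1bp1l (0.987) and Filip1 (0.979). For Edn1 they were the fibrillar collagen gene Col11a1 (0.989), the chaperone gene Canx (0.988) and Homer2 (0.986). Agtr2 was nearest to Prrx1 (0.986), to Ddc (0.984), which is also on the sympathetic neuron list, and to Hoxa5 (0.983). For Ace they were Dlx5 (0.982), Slc2a13 (0.978) and Dock8 (0.978). Npy1r itself ranged over 2.65 on the log2 scale and Insig2 over 0.58, so the likeness is one of order and spacing and not of size. Among the members the highest correlation was between Agtr2 and Ednrb (0.91) and the lowest between Edn1 and Npy1r (-0.89).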

How the data were processed

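Deposited values are log2 signals that the authors made with RMA in Affymetrix Expression Console, per the submitters' processing notes; versions, options and the genome build of the array are not stated there. The table held 41345 probe sets. A single gene symbol was listed for 23525, more than 1 for 1810 and none for 16010. For each gene the single-symbol probe set with the highest mean was used (1082 genes had a choice), and genes under the 25th percentile of the mean were left out as dim.

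The model, from limma 3.58.1 in R 4.3.3, had 1 coefficient per group over 8 arrays, eBayes with default settings, and Benjamini-Hochberg adjustment over 16638 genes. "Rose", "fell" and "passed" mean an adjusted p under 0.05. The shares of all genes that passed, given for the members, apply to the list counts of the same comparison. The fit was run on simulated data with known changes and independent noise of the fitted size. Such data hold no shared handling or neighbouring tissue, so that run cannot speak to either. The number of arrays limits the precision.

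The members and gene lists were chosen with earlier results of these data known. The rule named all members, up to 4 called genes per list and comparison, and ligands, receptors and converting enzymes of the short lists. It also named the 3 genes most correlated with each called member, after the exclusions given with that ranking. Junb, Ccn1 and Ccl2, marker genes, and called genes beyond 4 in an averaged comparison were named after their values were seen. Alternatives were other filters, priors, scalings, weights and probe set rules, a 1.2-fold test, a replicate block, only the compared arrays in the fit, and leaving out each array.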

Additional observations from a re-analysis of the deposited data

How the results depend on the processing

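No called member changed direction under any of 19 alternatives, and 3 of 11 called member differences passed under all of them, Npy1r and Agtr2 between segments and Npy1r between genotypes, each averaged over the other factor. In the order KO minus WT ascending, KO minus WT descending and their average, then ascending minus descending in KO, in WT and their average, the members called were 2, 1, 2, 2, 1 and 3. A trended robust prior gave 4 in the first, 2 in the second, 4 in their average, and 5 in WT and in the segment average. Testing all 41345 probe sets gave 0 in each of the 4 pairwise comparisons. A 1.2-fold test gave 0 in KO minus WT ascending and in both segment comparisons, and 1 in the genotype average, where Edn1 was lost. Using only the arrays compared gave 1 in KO minus WT ascending and 1 between segments in KO. Cyclic loess and the 50th percentile filter each gave 2 between segments in WT and 5 in the segment average. With each array left out in turn the counts were 0 to 2, 0 to 1, 2 to 2, 0 to 2, 0 to 1 and 2 to 3, the lone array of a group being assumed to vary like the others. The interaction called 0 members throughout. The cause of these changes was not tested.

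The labels do not say whether replicate numbers mark a litter or a day. Deviations of same-numbered arrays correlated at -0.10 to 0.13 over the 6 pairs of groups. The highest values were between genotypes of the same segment, 0.13 in the ascending and 0.11 in the descending aorta. Weak correlations cannot show that pools with the same number shared nothing. A replicate block left every count of members called as it was, and took the count over all genes from 380 to 200 in KO minus WT descending. Over all genes the count for KO minus WT ascending, 455 in the fit reported, ran from 18 with all probe sets tested to 1014 with the trended robust prior, and for descending, 380, from 13 to 919 in the same fits. The number of arrays limits which differences could be detected.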
